A study of Mus musculus with 7 samples.

Results

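The 8 genes described here encode the canonical Notch ligands Dll4, Dll1, Jag1 and Jag2 and the receptors Notch1, Notch2, Notch3 and Notch4, taken by symbol from the 12756 genes of a table of ribosome-bound RNA from mouse retina. All 8 were in the table. Retinas came from adult C57BL/6 mice of the genotype Cdh5-CreERT2 Rpl22 tm1.1Psam, in which a Cre recombinase driven by the endothelial Cdh5 promoter and activated by tamoxifen tags the ribosomal protein Rpl22 with HA, so that anti-HA beads can pull down ribosomes of endothelial cells. One group had received an antibody against Dll4 (4 libraries, anti-Dll4 1 to 4) and the other a control IgG (3 libraries, control IgG 1, 3 and 4). Mice of both groups carried the Cre and the tagged Rpl22. Dose and timing of the antibody are not given, and neither is whether every library is its own animal, so a p-value here speaks for the variation among 7 libraries, technical variation included.

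Notch signalling passes between touching cells. A ligand on one cell binds a receptor on its neighbour, and enzymes then cut the receptor and free its intracellular part, which enters the nucleus, joins the DNA-binding protein Rbpj and switches on targets such as the Hes and Hey genes. In growing retinal vessels Dll4 on tip cells restrains sprouting of the cells beside them, and Dll4 and Notch also take part in forming arteries, while Jag1 is known there as a ligand that opposes Dll4. Notch1 and Notch4 are receptors of endothelium, Notch3 is best known in pericytes and smooth muscle cells, and Notch1 and Notch2 are used by many tissues.

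Markers of endothelium and of other retinal cells were both present. The libraries held 1356192 to 1771086 reads over the listed genes, and 1 read was worth 0.565 to 0.737 CPM (reads scaled to a library total of 1000000). All 24 markers of a general endothelial list (such as Podxl, Esam, Pecam1 and Cdh5) were in the table, and together they made up 0.701% to 0.985% of the CPM in anti-Dll4 libraries and 0.318% to 0.481% in control IgG libraries. The 15 rod markers, led by the rod transcription factor Nr2e3 and the disc protein Rom1, made up 1.18% to 2.16% in anti-Dll4 libraries and 2.63% to 2.72% in control IgG libraries. Of these 15, 4 had a higher mean CPM in anti-Dll4 libraries, against the direction of the sum. Fewer cells of a type, less RNA per cell and a different enrichment in the pull-down cannot be told apart in such samples. Of 11 cell type lists, these 2 had sums that did not overlap between the groups, and the other 9 overlapped.

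The ligand Dll4 and the receptor Notch4 were higher in every anti-Dll4 library than in any control IgG library, by a wide gap for Dll4 and a narrow one for Notch4. The start regions of these 2 genes are shown here because they were the 2 of 8 members whose groups did not overlap, where 7.59% of all genes tested did not overlap and 3.84% were higher in this way. Each line gives the 250 bases before the RefSeq start (build GRCm38.p6, plus strand), at chr2:119325534-119325783 for Dll4 and chr17:34564045-34564294 for Notch4, with each GGGCGG (the GC box, searched on both strands) in capitals. Hes5, a Notch target that encodes a repressor of neural differentiation, is set beside them at chr4:154960673-154960922 with its matches to TGGGAA, the core of the Rbpj site, in capitals on either strand.
Dll4: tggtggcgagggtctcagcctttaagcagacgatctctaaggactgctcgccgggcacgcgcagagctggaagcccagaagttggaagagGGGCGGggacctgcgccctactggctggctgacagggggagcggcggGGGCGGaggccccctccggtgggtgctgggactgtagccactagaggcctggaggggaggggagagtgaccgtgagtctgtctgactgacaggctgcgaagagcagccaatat
Notch4: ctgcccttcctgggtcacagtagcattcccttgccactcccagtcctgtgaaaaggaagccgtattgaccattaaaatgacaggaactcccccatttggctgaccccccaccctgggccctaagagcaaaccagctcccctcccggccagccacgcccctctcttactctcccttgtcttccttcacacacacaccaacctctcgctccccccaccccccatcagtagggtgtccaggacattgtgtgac
Hes5: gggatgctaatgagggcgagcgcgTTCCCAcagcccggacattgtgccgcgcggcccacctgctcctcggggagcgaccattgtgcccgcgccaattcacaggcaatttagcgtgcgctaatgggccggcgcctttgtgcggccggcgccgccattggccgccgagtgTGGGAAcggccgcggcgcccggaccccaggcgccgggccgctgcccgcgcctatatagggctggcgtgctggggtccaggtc
RefSeq start regions were found for all 8 members, in 9 windows since Dll1 has 2. None of the 9 held TGGGAA on either strand, which 21.6% of all 32851 windows of that length did, whereas the Hes5 window held it 2 times, beginning 226 and 82 bases before the start, and the window of Hey2, another target named after its value was seen, held 1. The GC box was in 5 of the 9 member windows and in 32.7% of all windows. It began 160 and 113 bases before the start of Dll4, and Notch4 had none. Windows of the other Notch targets were not looked at one by one. Both motifs were chosen after the windows had been seen, and a match or its lack says only which letters stand in these windows.

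Dll4, the ligand that the antibody is directed against, had 45.5, 183, 119.5 and 139 CPM in anti-Dll4 libraries 1 to 4, against 1.18, 11.8 and 22.2 CPM in control IgG libraries 1, 3 and 4. These values rest on 68, 300, 211 and 246 reads in anti-Dll4 libraries and on 2, 16 and 34 reads in control IgG libraries. The groups did not overlap. Anti-Dll4 1, the lowest of its group, had a 95% counting interval of 35.4 to 57.7 CPM, and control IgG 4, the highest of its group, one of 15.3 to 31.0 CPM (exact Poisson, counting error only). Means were 122 ± 57.5 CPM (SD, n = 4) in anti-Dll4 libraries and 11.7 ± 10.5 CPM (SD, n = 3) in control IgG libraries, a ratio of 10.4. On the log2(CPM + 1) scale the change was 3.67 ± 1.10 (SE, 95% interval 1.37 to 5.96, unadjusted p = 0.00324). This p ranked 97 of the 10899 genes tested, and the change did not pass the threshold of 0.05 after Benjamini-Hochberg adjustment over all of them (limma adjusted p = 0.358). The change was 2.67 without control IgG 1 and 4.38 without control IgG 4 (limma adjusted p = 0.745 and 0.344).

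Dll1, a ligand known mainly from neural progenitors and also from arterial endothelium, was listed at 0 in 3 of the 4 anti-Dll4 libraries. It had 6.03 CPM (9 reads) in anti-Dll4 1 and 0 in anti-Dll4 2, 3 and 4, against 42.5, 79.6 and 0 CPM in control IgG libraries 1, 3 and 4 (72, 108 and 0 reads). The groups overlap through the control library at 0. By counting error alone, a count of 0 allows up to 3 reads at a one-sided 95% limit, unlike the two-sided intervals given for Dll4. That floor is 1.69 to 1.96 CPM in the 4 libraries with Dll1 at 0. Libraries varied by more than this, with 108 and 0 reads among the controls, so a 0 does not place Dll1 below the floor. The log2 change was -3.22 ± 1.59 (SE, 95% interval -6.53 to 0.09, limma adjusted p = 0.706). Without control IgG 4 it was -5.18, still short of the threshold (limma adjusted p = 0.591).

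Jag1, a ligand of the Serrate type, was the most abundant of the 8 genes in both groups and the one measured with the least spread in control libraries. It had 301, 429, 206 and 95.4 CPM in anti-Dll4 libraries 1 to 4, against 411, 496 and 380 CPM in control IgG libraries 1, 3 and 4. Anti-Dll4 2 lay within the control range, and the other 3 anti-Dll4 libraries lay below it. The SD on the log2 scale was 0.92 in anti-Dll4 libraries and 0.20 in control IgG libraries, where the medians over all tested genes were 1.56 and 1.05. The log2 change was -0.92 ± 0.48 (SE, 95% interval -1.91 to 0.07, limma adjusted p = 0.711), and without anti-Dll4 4 it was -0.51. With libraries scaled on endothelial markers, which shifted the median of all genes to -1.07, it was -2.0 (limma adjusted p = 0.0748).

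Jag2, the other Serrate-type ligand, was found in quantity in anti-Dll4 2 and 3 alone. These had 61.8 and 34.0 CPM (101 and 60 reads), while anti-Dll4 1 had 0 and anti-Dll4 4 had 0.565 CPM (1 read). In control IgG libraries 1, 3 and 4 it had 0, 0 and 1.96 CPM, the last from 3 reads. The groups overlap, and the log2 change of 2.42 ± 1.53 (SE, 95% interval -0.76 to 5.59, limma adjusted p = 0.763) rests on those 2 anti-Dll4 libraries.

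**Figure D1:**
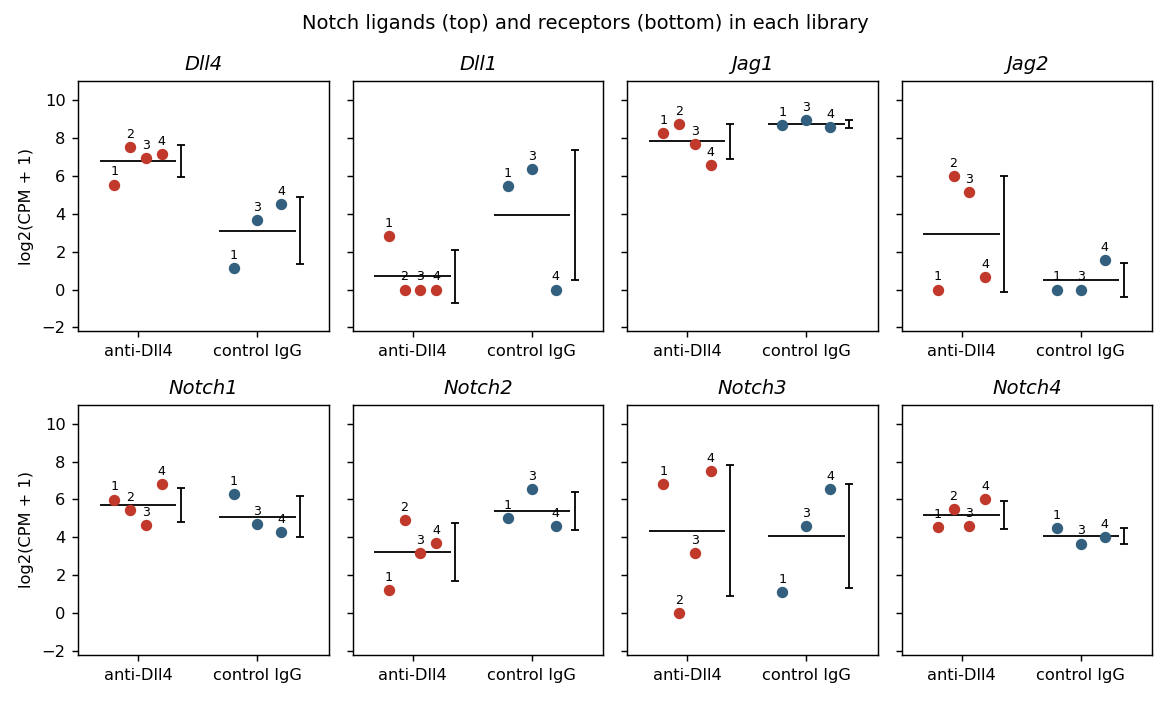
Level of each Notch ligand (top row) and receptor (bottom row) as log2(CPM + 1) on the vertical axis, with 1 point per library labelled by its number, anti-Dll4 left and control IgG right; lines are means and bars are SD (n = 4 and 3). Dll4 and Notch4 are the panels in which all anti-Dll4 points lie above all control points, by a wide gap for Dll4 and a narrow one for Notch4.

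Since the 4 ligands bind the same receptors, their reads were also set against each other within each library, a ratio that no scaling of the library can change. The mix of cells in a library can still change it. Endothelial markers summed to 7010 to 9845 CPM in anti-Dll4 libraries and to 3178 to 4813 CPM in control IgG libraries. The part of this difference in the shares was not tested. Dll4 made up 12.9%, 27.2%, 33.2% and 59.1% of the ligand reads in anti-Dll4 libraries 1 to 4, against 0.259%, 2.01% and 5.48% in control IgG libraries 1, 3 and 4. The groups did not overlap, and the lowest anti-Dll4 share (Wilson 95% interval 10.3% to 16.0%, of 527 reads) lay above the highest control share (3.95% to 7.57%, of 620 reads). Jag1 made up 85.4%, 63.6%, 57.3% and 40.6% in anti-Dll4 libraries and 90.4%, 84.4% and 94.0% in control IgG libraries. In anti-Dll4 4 Dll4 had more reads than Jag1, and in each of the other 6 libraries Jag1 had the most. The ligands together had 405 ± 188 CPM (SD, n = 4) in anti-Dll4 libraries and 482 ± 94.4 CPM (SD, n = 3) in control IgG libraries. Since these shares join members chosen with earlier results known, they are given with no test.

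None of the 4 receptors had a change whose 95% interval left out 0. Notch1, the receptor most studied in vessels, had 62.9, 42.2, 24.4 and 111 CPM in anti-Dll4 libraries 1 to 4, against 78.5, 25.1 and 18.2 CPM in control IgG libraries 1, 3 and 4. The ranges overlap over most of their length, and the log2 change was 0.63 ± 0.98 (SE, 95% interval -1.40 to 2.67, limma adjusted p = 0.916), with the sign turning to -0.42 when libraries were scaled on endothelial markers, against the shifted median of -1.07. Notch2, a broadly used receptor, had 1.34, 28.7, 7.93 and 11.9 CPM in anti-Dll4 libraries and 31.9, 92.2 and 23.5 CPM in control IgG libraries. Anti-Dll4 2 reached into the control range and the other 3 lay below it. Its log2 change was -2.16 ± 1.48 (SE, 95% interval -5.22 to 0.91, limma adjusted p = 0.782).

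Notch3, the receptor of mural cells, differed widely within both groups. It had 110.5, 0, 7.93 and 179.6 CPM in anti-Dll4 libraries 1 to 4 (165, 0, 14 and 318 reads), against 1.18, 22.9 and 93.2 CPM in control IgG libraries 1, 3 and 4 (2, 31 and 143 reads). Both groups ran from near 0 to about 100 CPM or more, and the log2 change of 0.28 ± 1.81 (SE, 95% interval -3.48 to 4.04, limma adjusted p = 0.985) changed sign in 6 of the 17 other settings tried, scaling on endothelial markers among them. The summed CPM of 8 mural markers, such as Tagln and Vtn, ran from 131 to 522 in anti-Dll4 libraries and from 248 to 324 in control IgG libraries, and 3 of the 8 were listed at 0 in at least 1 library. Anti-Dll4 4, with the highest Notch3, had the lowest mural sum. The mural markers Pdgfrb, Kcnj8 and Acta2 were those at 0 somewhere, and 4 further listed markers were not analysed here. Values at 0 were common, since 27.9% of the 4922 tested genes with a mean of 20 to 100 CPM were listed at 0 in at least 1 library. With 1 read worth 0.565 to 0.737 CPM, such means stand for many reads, and the cause of these 0 values was not tested.

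Notch4, a receptor found mostly in endothelial cells, had 22.1, 44.6, 23.2 and 64.9 CPM in anti-Dll4 libraries 1 to 4, against 21.8, 11.8 and 15.0 CPM in control IgG libraries 1, 3 and 4. The groups did not overlap, but only by the gap between anti-Dll4 1 and control IgG 1, whose counting intervals of 15.2 to 31.0 CPM and 15.4 to 30.1 CPM were nearly the same. Its own SD was small, 0.73 log2 units between anti-Dll4 libraries and 0.42 between control IgG libraries. The log2 change was 1.11 ± 1.21 (SE, 95% interval -1.40 to 3.62, limma adjusted p = 0.881), with an SE that limma raised towards that of other genes at this level. Scaled on endothelial markers, the change was 0.07, against the shifted median of -1.07.

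**Figure D2:**
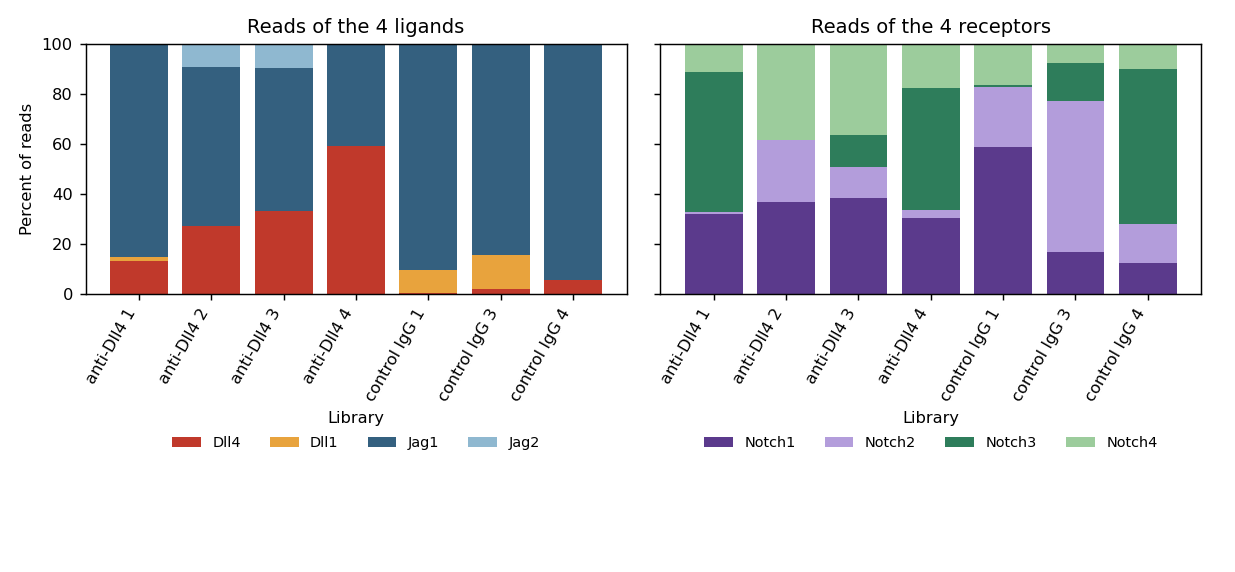
Percent of the reads of the 4 ligands (left) and of the 4 receptors (right) that each gene took, 1 bar per library, with the 4 anti-Dll4 libraries left of the 3 control IgG libraries. The Dll4 segment runs from 12.9% to 59.1% in anti-Dll4 libraries and from 0.259% to 5.48% in control IgG libraries, while the receptor with the most reads changes from library to library within both groups.

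Among the receptor reads, Notch1 held 30.3% to 38.4% in all 4 anti-Dll4 libraries, against 58.8%, 16.5% and 12.2% in control IgG libraries 1, 3 and 4. A different receptor led in each control library, Notch1 in control IgG 1, Notch2 in control IgG 3 (60.7%) and Notch3 in control IgG 4 (62.2%). Notch3 led in anti-Dll4 1 and 4 (56.1% and 48.8%), Notch4 in anti-Dll4 2 (38.6%) and Notch1 in anti-Dll4 3 (38.4%). The receptors together had 186 ± 133 CPM (SD, n = 4) in anti-Dll4 libraries and 145 ± 10.2 CPM (SD, n = 3) in control IgG libraries.

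QuantSeq libraries read the 3′ end of a transcript, so levels of different genes can be set side by side in CPM without a correction for length, although priming may differ between transcripts. In anti-Dll4 libraries the order of mean CPM was Jag1, Dll4, Notch3, Notch1, Notch4, Jag2, Notch2 and Dll1, and each of the 7 pairs of neighbours overlapped over its libraries. In control IgG libraries it was Jag1, Notch2, Dll1, Notch1, Notch3, Notch4, Dll4 and Jag2. There Jag1 stood apart from the next gene, with 380 to 496 CPM against at most 92.2 CPM for Notch2, and the other 6 pairs of neighbours overlapped. Dll4 was thus the second of the 8 in anti-Dll4 libraries and the seventh in control IgG libraries.

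Over the 8 members together, 0 passed the threshold in limma, where 0.119% of the 10899 genes tested did, all of them higher, and 0 passed in voom on whole reads, where 0.367% did. At an unadjusted p under 0.05 there was 1 member in limma (Dll4) and 2 in voom (Dll4 and Jag1), beside 7.09% of all genes in limma and 8.29% in voom. Changes were positive for 5 members and negative for 3, and their median log2 change was 0.45, beside -0.14 over all genes tested. The groups did not overlap for 2 of the 8 (25%), both higher in anti-Dll4 libraries, where 7.59% of all genes tested did not overlap, 3.84% being higher and 3.75% lower in anti-Dll4 libraries. With 8 members these shares are coarse. All 8 passed the filter on low values, which asks for 1 CPM in at least 3 libraries. Dll1 did so through 2 control and 1 anti-Dll4 library, and Jag2 through 2 anti-Dll4 libraries and 1 control.

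**Figure D3:**
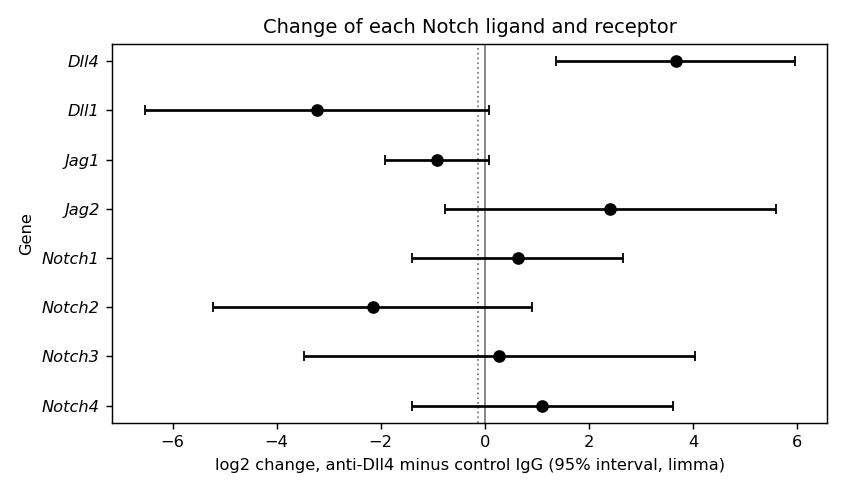
Change of each gene on the log2(CPM + 1) scale, anti-Dll4 minus control IgG, with 95% intervals from limma; the solid line marks 0 and the dotted line the median of all tested genes, -0.14. The interval of Dll4 (1.37 to 5.96) lies above 0 before adjustment, and those of the other 7 genes include 0.

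Dll4 was then set against the summed endothelial markers of each library, because their sum was higher in anti-Dll4 libraries as well. The summed CPM of the 24 markers ran from 7010 to 9845 in anti-Dll4 libraries and from 3178 to 4813 in control IgG libraries. A higher mean in anti-Dll4 libraries was found for 20 of the 24, and a lower one for Kdr, Flt1, Ptprb and Fli1. Listed at 0 in at least 1 library were 5 (Tek, Emcn, Fli1, Sox17 and Ptprb). The summed CPM of the rod markers ran from 11846 to 21643 in anti-Dll4 libraries and from 26317 to 27171 in control IgG libraries, and the part of rod RNA in the change of Dll4 was not tested. Per 100 endothelial marker reads there were 0.640, 2.62, 1.21 and 1.72 Dll4 reads in anti-Dll4 libraries 1 to 4, against 0.0371, 0.245 and 0.646 in control IgG libraries 1, 3 and 4. Anti-Dll4 1 and control IgG 4 were level, and the other 3 anti-Dll4 libraries lay above all controls. On the log2 scale, with 1 CPM added to Dll4, the difference was 2.58 (-6.18 ± 0.85 in anti-Dll4 and -8.76 ± 1.66 in control IgG libraries, SD, n = 4 and 3). It did not pass an exact permutation test over the 35 ways to label the libraries (p = 0.0571, two-sided, where the smallest possible is 0.0286). Without control IgG 1, which had 2 Dll4 reads, the difference was 1.71 (exact permutation p = 0.2, in a design of 4 against 2 whose smallest possible p of 0.0667 is above the threshold).

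**Figure D4:**
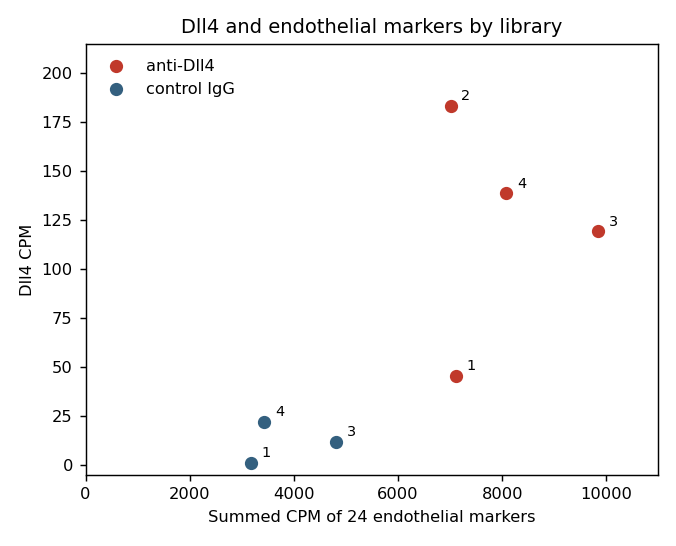
CPM of Dll4 (vertical) against the summed CPM of 24 endothelial markers (horizontal), 1 point per library labelled by its number, for anti-Dll4 and control IgG. The 4 anti-Dll4 libraries lie higher on both axes than the 3 control IgG libraries, from 7010 CPM of markers and 45.5 CPM of Dll4 upwards.

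The genes whose pattern over the 7 libraries was nearest to that of Dll4 were Ets2, a transcription factor of the ETS family, Pim1, a serine/threonine kinase, and Med15, a subunit of the Mediator complex. Their root mean square differences from Dll4, on centred log2(CPM + 1) values, were 0.62, 0.74 and 0.83, beside a median of 2.59 over all tested genes. Nearest to Jag1 were Aasdh (0.12), Rictor, a component of the mTORC2 complex (0.20), and Rcbtb1 (0.23), beside a median of 1.66. For Notch1 they were Sall3 (0.29), Defb26 (0.36) and Cdk5, a kinase of neurons (0.38), beside a median of 1.70. For Notch2 they were Mrpl51, a protein of the mitochondrial ribosome (0.50), Senp7 (0.63) and 4931440F15Rik (0.64), beside 2.09. For Notch3 they were Cbx8, a Polycomb protein (0.83), Rhoq (0.90) and Snrpn (0.96), beside 3.01. For Notch4 they were Lhfp (0.22), Akap2 (0.24) and Pakap (0.24), beside 1.71, and the last pair had identical values and cannot be told apart. Sall3, Defb26 and Lhfp averaged only 1.55, 1.02 and 1.25 CPM over all 7 libraries. Dll1 and Jag2, with means under 20 CPM, were not compared in this way. Each gene named is among the 3 nearest of all tested genes, so a difference under the median follows from the choice. Whether they lie nearer than by chance was not tested.

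Other genes of the Notch pathway were taken from a list of 58 genes, of which 50 were in the table and 46 were tested. In limma 0 passed in either direction, beside 0.119% of all genes, and 0 had an unadjusted p under 0.05, beside 7.09%. Voom called 0 as well, beside 0.367%, with 3 at an unadjusted p under 0.05 (Itch, Hes5 and Hey1), beside 8.29%. Changes were positive for 18 and negative for 28, with a median of -0.28, beside -0.14 over all genes tested. All 5 tested genes of receptor glycosylation, which tunes how a receptor responds to each ligand, had negative log2 changes (median -1.30). The signs held under both other scalings, but 0 passed and 3 of the 5 had a higher mean CPM in anti-Dll4 libraries. Scaling on endothelial markers moved the median of all genes to -1.07. Under it 0 of 10 receptor turnover genes and 0 of 4 targets had a positive change as well. Over all tested genes 45.5% had a positive change. Among the glycosylation genes Poglut1, an O-glucosyltransferase, had a log2 change of -1.74 ± 1.06. Pofut1, the O-fucosyltransferase whose sugar the Fringe enzymes extend, had one of -0.47 ± 1.15. Even so, the mean CPM of Pofut1 was higher in anti-Dll4 libraries (111 ± 86.9) than in control IgG libraries (81.3 ± 42.8).

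Genes that act on the ligand or cut the receptor did not pass either. Adam17, a sheddase that can cut Notch receptors, had 373, 389.6, 593 and 486 CPM in anti-Dll4 libraries 1 to 4, against 316, 212 and 348 CPM in control IgG libraries 1, 3 and 4. Of the 46 tested genes it was the 1 whose groups did not overlap, where 7.59% of all tested genes did not, and it had a log2 change of 0.66 ± 0.38 (limma adjusted p = 0.742). Mib1, the ubiquitin ligase that drives endocytosis of ligands, had a change of -0.64 ± 1.23, also with a higher mean CPM in anti-Dll4 libraries (84.9 ± 67.9) than in control IgG libraries (76.0 ± 63.0). Neurl1b, another such ligase, had 1, 38, 2 and 129 reads in anti-Dll4 libraries 1 to 4, against 0, 1 and 3 in the controls. Its change was 2.37 ± 1.55 (limma adjusted p = 0.771). Dner, a non-canonical Notch ligand of neurons, had 143, 53, 152 and 0 reads, against 14, 0 and 0. Its change was 3.46 ± 1.87 (limma adjusted p = 0.725), and the groups of both genes overlap.

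Downstream of the receptor, Hes5 had 0, 75.2, 0 and 1.69 CPM in anti-Dll4 libraries 1 to 4, against 72.0, 47.9 and 22.2 CPM in control IgG libraries 1, 3 and 4. Anti-Dll4 2 lay above all control libraries and the other 3 below them, and the log2 change was -3.52 ± 1.81 (limma adjusted p = 0.711). Hes1, the target with the highest mean, had a change of 0.74 ± 1.35, while its mean CPM was 64.7 ± 49.6 in anti-Dll4 libraries and 75.4 ± 64.6 in control IgG libraries. For Pofut1, Mib1 and Hes1 the difference of log2 means and that of CPM means thus have opposite signs. Hey2, below the filter, had 0, 0, 0 and 1 read in anti-Dll4 libraries and 53, 0 and 26 reads in control IgG libraries. Of the nuclear factors, Maml2, a coactivator of the Rbpj complex, had -2.29 ± 1.34 and Cir1, a corepressor that binds Rbpj, 0.71 ± 0.63. Of the genes of receptor turnover, Itch, a ubiquitin ligase that can target Notch, had -3.17 ± 1.67 and Numbl, a relative of the Notch inhibitor Numb, -0.32 ± 0.68.

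**Figure D5:**
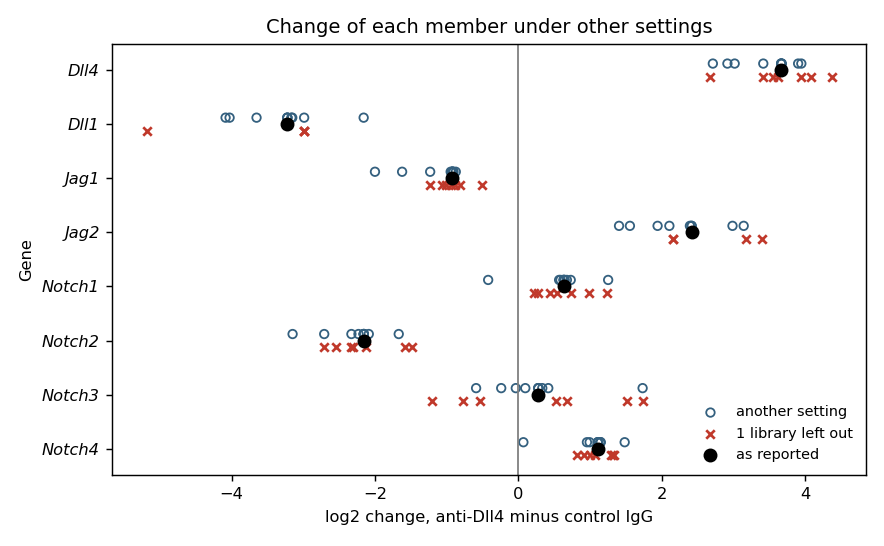
The log2 change of each gene, anti-Dll4 minus control IgG (horizontal), as reported (filled), under other settings of the analysis (circles) and with 1 library left out (crosses). Dll4 stays between 2.67 and 4.38 and Jag1 between -2.0 and -0.51, while Notch3 falls on both sides of 0, from -1.20 to 1.73.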

How the data were processed

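The only file was a table of the series with 7 columns, prepared by the authors. Per the labels' protocols, QuantSeq 3′ libraries were made from RNA pulled down with anti-HA beads, and the submitters' processing notes list cutadapt, bedtools, TopHat2 and the build hg19, a human one, although the symbols are of mouse. Annotation, counting rule and strand use: not given in the sources used here. The deposited values are log10(CPM + 1): turned back, they sum to 1000000 per library, and 100% were whole multiples of 1 read (tolerance 1e-06), so that reads could be recovered. The control titles carry the numbers 15, 3 and 4 and the control columns 1, 3 and 4, so the column called control IgG 1 here matches no title (Control IgG 15 is the title left over) and entered by its group alone.

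From these, log2(CPM + 1) was computed, and 10899 genes reaching 1 CPM in 3 or more libraries entered limma 3.58.1 in R 4.3.3 (trended empirical Bayes, two-sided, Benjamini-Hochberg over all genes). Fold changes on this scale understate those of low genes. The p-values in the text are not adjusted over the members. Alternatives were other pseudocounts, filters and scalings, voom on whole reads, no trend, leaving out each library and a replicate block. Intervals and floors cover counting error only, since no molecular identifiers are named. Named are all 8 members, in each pathway role the gene with the smallest p and the one with the highest mean, the 3 genes nearest in pattern to each member with a mean of at least 20 CPM, and the top 2 markers of a list. Hey1, Hey2, and the markers Pecam1, Cdh5, Kdr, Flt1, Pdgfrb, Kcnj8, Acta2, Tek, Emcn, Fli1, Sox17 and Ptprb were named outside this rule, after their values were seen. The members and lists were chosen with earlier results of these data known.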

Additional observations from a re-analysis of the deposited data

Results flagged for a closer look

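In the anti-Dll4 group Dll1 stood out in a single library. It was at 2.81 log2(CPM + 1) in anti-Dll4 1, from 9 reads, and at 0 in the other 3, so that the gap between this library and the rest was the whole range of the group. For the same reason its share of the ligand reads, 1.71% in anti-Dll4 1 and 0 in the others, lay apart. Both come from the same 9 reads. Among 20 sets of 4 anti-Dll4 values examined these 2 were found. The limit used lets through about 1 in 20 sets of normally spread values. That rate does not hold for a set with 3 values at 0, where any other value stands apart.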

How the results depend on the processing

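None of the 8 members passed in any of the 17 other settings (0 in each), those with 1 library left out included. The lowest adjusted p reached was 0.0748, for Jag1 with libraries scaled on endothelial markers, where its change was -2.0 (limma, range over its settings 0.0748 to 0.917). Dll4 kept its direction in 17 settings, from 2.67 without control IgG 1 to 4.38 without control IgG 4 (adjusted p 0.2 to 0.745), and so did Jag1, Notch2 and Notch4. Dll1 did in the 14 and Jag2 in the 13 in which they passed the filter. Dll1 fell below the filter without anti-Dll4 1, control IgG 1 or control IgG 3. Jag2 fell below it without anti-Dll4 2, anti-Dll4 3 or control IgG 4, and under the stricter filter. The libraries with most of their reads are among these, so their direction was not tested without them. Notch1 turned to -0.42 under scaling on endothelial markers. Notch3 turned to -0.036 with a pseudocount of 0.25 CPM, to -0.59 under scaling on endothelial markers, to -0.24 under the replicate block on title numbers, and to -0.53, -0.77 and -1.20 without anti-Dll4 1, anti-Dll4 4 and control IgG 1, within a leave-one-out range of -1.20 to 1.73. Scaling on endothelial markers moved the median of all genes from -0.14 to -1.07. Above it lay Dll4 at 2.71, Jag2 at 1.94, Notch4 at 0.07, Notch1 at -0.42 and Notch3 at -0.59. Below it lay Jag1 at -2.0, Notch2 at -3.15 and Dll1 at -3.65.

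The count of all genes past the threshold, 13 (all higher), was 0 without the mean-variance trend, 40 in voom (16 higher and 24 lower) and 89 under scaling on endothelial markers (1 higher and 88 lower). It ran from 3 (without anti-Dll4 4 or control IgG 1) to 22 (without control IgG 3), and was 6 without anti-Dll4 1 or anti-Dll4 2. The cause was not tested. A replicate block gave 3 genes on the title numbers and 4 on the column numbers, a block chosen after seeing the data. Libraries with the same column number had correlations of their deviations from the group means of 0.05, 0.05 and 0.07. These were low, although each was the highest of its libraries. No cut-off had been set, so a pairing is neither shown nor excluded. Dll4 per endothelial marker CPM differed by 1.93 to 2.82 in log2 with other pseudocounts or without the 2 highest markers, which did not pass, and by 1.71 to 3.36 with 1 library left out, where the smallest possible p (0.1 or 0.0667) cannot pass. Dll1 and Jag2 had few reads, at or under the floor of 3 reads in 4 and 5 of the 7 libraries.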
